A study of Mus musculus with 6 samples.

Results

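The 39 genes described here encode amino acid transporters of the SLC1, SLC3, SLC6, SLC7, SLC16, SLC36, SLC38 and SLC43 families and 5 enzymes that make asparagine, serine and glycine. They were chosen by symbol with earlier results of this comparison known, so counts over the list describe it and are not independent evidence. A gene with several probe sets was read from the 1 whose mean across arrays was highest. A probe set naming only that gene was found for 38 of them. Of these, 33 had a mean above background, among 15312 such genes of 22180 on the array. Background is a log2 value of 4.11, the 90th percentile of olfactory, vomeronasal and bitter taste receptor genes. The filter used the mean over both groups, so a gene low in 1 group could pass through the other.

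Expression was measured with whole-transcript Affymetrix arrays in blood endothelial cells sorted from the intestine of adult mice on a mixed C57BL/6 x 129 background, with 3 knockout and 3 control arrays. The titles call the replicates biological and do not say whether animals were pooled. Knockout mice were Apcfl//fl; Villin-CreERT2. The villin promoter of the transgene directs tamoxifen-activated Cre to gut epithelial cells, so Apc is removed there and not in the endothelium that was sorted. Control mice were WT, Apcfl//fl, and their titles name no Cre. Mice of both groups received tamoxifen under the skin on 5 days, and cells were taken on day 6 as CD31+ cells without CD45, EpCAM or gp38. The comparison asks what acute loss of Apc in the epithelium does to gene expression in the vessels beside it.

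Amino acid carriers work in exchange and accumulation pairs. Sodium-coupled carriers load small neutral amino acids into the cell, and exchangers of the SLC7 family, held at the surface by the heavy chains Slc3a2 or Slc3a1, trade these for large neutral, cationic or cystine substrates. Leucine, glutamine and arginine brought in this way feed protein synthesis and the growth kinase complex mTORC1. When amino acids run short, the kinase GCN2 phosphorylates eIF2 alpha and the transcription factor ATF4 is translated, and ATF4 activates many carriers together with Asns and the serine synthesis enzymes. In growing endothelium, glutamine and asparagine supply are known to support proliferation and sprouting.

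The 12 pan-endothelial markers were above background on every array, with list means from 10.5 to 10.6 on the log2 scale, and Pecam1 averaged 11.4 in both groups. Single markers of that list differed: Cldn5, a tight junction gene, fell (-1.28 ± 0.19, adjusted p = 0.0137), Eng, a co-receptor of the TGF-beta family, rose (0.26 ± 0.044, adjusted p = 0.0211), and 6 of the 12 had an unadjusted p under 0.05. Apc was at 6.24 to 6.42 in knockout and 6.29 to 6.70 in control arrays (adjusted p = 0.65), which does not check the labels because it was deleted in other cells. Enterocyte RNA was unequal. The mean of 13 enterocyte markers was 5.34 to 5.69 on the knockout arrays, 6.96 in control 1, 8.94 in control 2 and 8.37 in control 3. All 13 were above background on the 3 control arrays and 10 on the 3 knockout arrays, Sis being below it on each of those. Epcam, the gene of the surface protein used to exclude epithelium, was below background on the knockout arrays and in control 1, and at 7.20 and 6.24 in controls 2 and 3. Markers of mural and smooth muscle cells were lower as well, at list means of 7.71 to 8.09 against 8.58 to 8.88, with 6 of 10 genes called lower. Pan-epithelial list means were 5.13 to 5.47 against 5.70 to 7.32, with 1 of 8 genes called lower. For T and NK cell markers they were 4.29 to 4.68 against 4.96 to 5.79, and none of 7 genes passed. List means of goblet, Paneth, fibroblast, lymphatic, B and plasma cell, myeloid, and glia and neuron markers overlapped between groups. Probe set brightness depends on the probes, so levels below are compared between arrays for 1 gene and never between genes.

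On the arrays of cells sorted from knockout mice, 5 of the 33 genes rose and none fell by limma. They were the glutamine carrier Slc1a5 (2.23-fold), the leucine and aromatic amino acid exchanger Slc7a5 (2.80-fold), the asparagine synthetase gene Asns (2.05-fold), the glutamate and cysteine carrier Slc1a1 (1.68-fold) and the system A carrier Slc38a2 (1.37-fold). Over all 15312 genes tested, 2.57% passed an adjusted p of 0.05, 1.10% as higher and 1.47% as lower. An unadjusted p under 0.05 was found for 13 of the 33, 8 higher and 5 lower, against 16.4% of all genes. For 14 of the 33 the arrays of the groups were fully separated, 9 higher and 5 lower. Full separation was found for 22.0% of all genes, 9.78% higher and 12.3% lower. A positive change was found for 21 of the 33 and for 46.7% of all genes. The median change was 0.090 on the log2 scale, beside -0.017 for all genes. On each of the 5 genes that rose, knockout 3 was the highest array. Among the 168 genes of the whole array called higher, knockout 3 was the highest for 34.5% and knockout 2 for 39.9%. Knockout 3 was the highest for 14 of the 33 genes (42.4%) and for 16.2% of all genes. The mean of 5 lymphatic endothelial markers was also highest in knockout 3, at 5.84. It was 5.11 and 5.31 in the other knockouts and 4.93 to 5.38 in the controls. Of the 5, Lyve1 alone rose (1.13 ± 0.23, adjusted p = 0.0406). Lyve1, Mmrn1 and Reln were highest in knockout 3, at 7.93, 6.42 and 5.43. Prox1 was highest in knockout 2 (4.88, against 4.33 in knockout 3), and Pdpn in knockout 3 (5.10) lay below every control. The mean of 5 B and plasma cell markers was 6.00 in knockout 3, 5.52 in each of the other knockouts and 5.45 to 5.67 in the controls. None of the 4 above background passed, and 2 had a positive and 2 a negative change. Mzb1, a plasma cell gene, was separated as higher (0.57 ± 0.18, adjusted p = 0.142). Jchain (0.41 ± 0.25), Cd79a (-0.034 ± 0.27) and Cd79b (-0.21 ± 0.15) overlapped between groups. The part of these cells in the result was not tested.

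**Figure D1:**
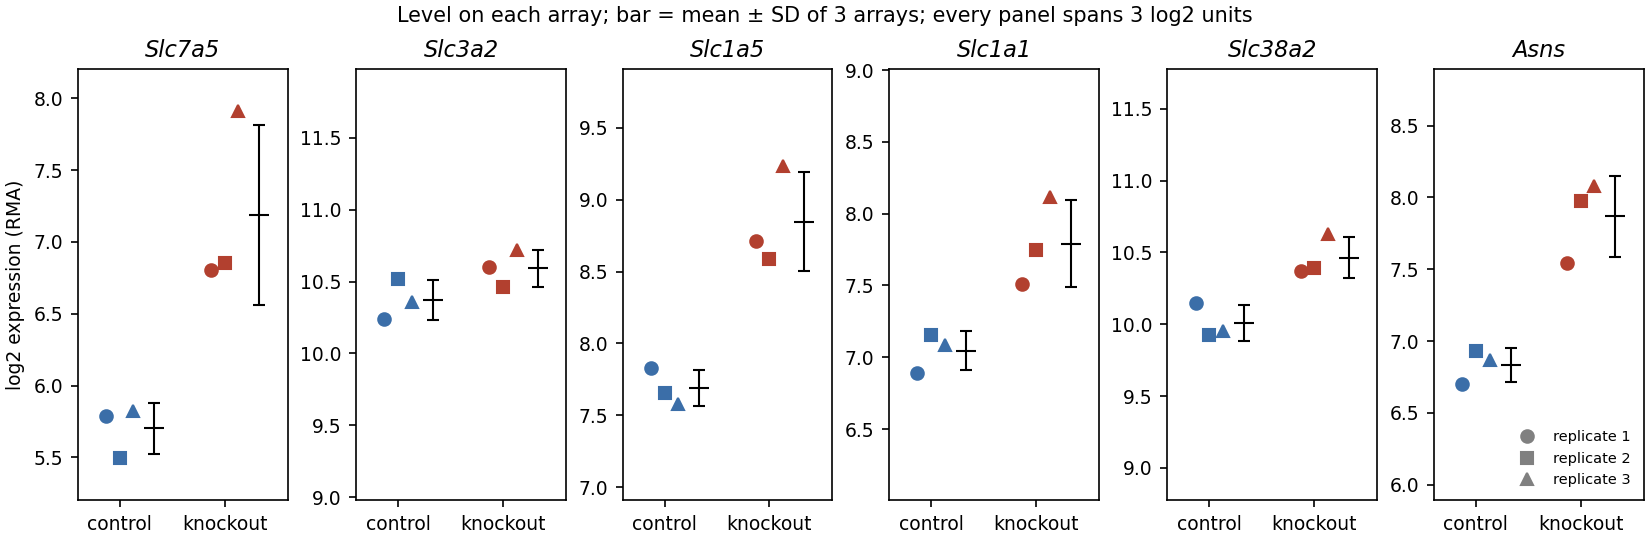
Log2 expression of the 5 genes that rose and of Slc3a2, the partner chain of Slc7a5, on each of 3 control (blue) and 3 knockout (red) arrays, with the mean and SD of each group as a bar. The groups do not overlap in 5 panels, and in Slc3a2 control 2 lies at 10.5, above knockout 2.

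The carriers of large neutral and aromatic amino acids were led by Slc7a5, which encodes LAT1, the main entry route for leucine, phenylalanine and tryptophan at many endothelial barriers. Its log2 level was 6.80, 6.85 and 7.91 on knockout arrays 1 to 3 and 5.79, 5.49 and 5.82 on control arrays 1 to 3. Every knockout array lay above every control, and knockout 3 stood about 1 log2 unit above the other knockouts. The change was 1.49 ± 0.28 (standard error, adjusted p = 0.0278), and without knockout 3 it was 1.13 (adjusted p = 0.0430). Leaving out knockout 2, control 2 or control 3 ended the call, at adjusted p-values of 0.0511, 0.0927 and 0.0870. So did a fit without the variance trend (adjusted p = 0.0638). Against control 1 alone the change was 1.40.

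Slc3a2, the 4F2 heavy chain or CD98 that LAT1 needs to reach the membrane, was at 10.60, 10.46 and 10.72 in the knockouts and 10.24, 10.52 and 10.36 in the controls. The groups overlapped, and the change was 0.22 ± 0.091 (adjusted p = 0.267), with a 95% confidence interval from 0.0145 to 0.43. The upper end of that interval lies below the lower end for Slc7a5, 0.86; the difference between the 2 genes was not itself tested. Slc7a8, which encodes the related exchanger LAT2 of absorptive epithelia, ran the other way at -0.53 ± 0.23 (adjusted p = 0.281). It was 5.00, 4.42 and 4.87 in the knockouts against 5.07, 5.74 and 5.07 in the controls, so that the groups were separated by less than 0.1 and control 2 stood apart. The uniporters Slc43a1 (0.063 ± 0.13) and Slc43a2 (-0.39 ± 0.20) and the aromatic amino acid carrier Slc16a10 (-0.44 ± 0.20) did not pass, and nor did Slc43a3, a relative known to carry purine nucleobases (0.12 ± 0.067). Their adjusted p-values lay between 0.318 and 0.866, and the groups overlapped for all 4 genes.

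Among carriers of cationic amino acids and cystine, 6 of 8 were above background and none passed. Slc7a1, which encodes CAT1, the widespread arginine and lysine carrier, was at 7.41, 7.43 and 7.55 in the knockouts and 7.19, 6.90 and 7.14 in the controls. The groups did not overlap, and the change of 0.39 ± 0.12 had an adjusted p of 0.142. The second cationic carrier gene, Slc7a2, was at 4.19, 3.87 and 3.98 against 4.26, 4.65 and 4.67 (adjusted p = 0.138), its knockout mean lying below background. Slc7a6 (0.52 ± 0.27, adjusted p = 0.389) and Slc7a7 (-0.23 ± 0.13, adjusted p = 0.435), the light chains that trade cationic for neutral amino acids, overlapped between groups. Slc7a3, another cationic carrier gene, was below background on every array, and so was Slc7a11, which encodes the cystine and glutamate exchanger xCT. Their levels ranged from 2.90 to 3.44 and from 2.85 to 3.56.

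The apical absorption complex of intestine and kidney, Slc7a9 with its heavy chain Slc3a1, takes up cystine and cationic amino acids and is not a typical endothelial product. Slc7a9 was at 3.86, 4.32 and 3.87 in the knockouts and at 4.13, 5.50 and 4.92 in the controls. Control 1 lay within the knockout range, and controls 2 and 3 lay above it. The fitted change was -0.83 ± 0.31 (adjusted p = 0.216), or -0.67 with knockout arrays below background raised to that level. Slc3a1 followed at 4.48, 4.30 and 4.45 against 4.59, 5.21 and 4.76 (-0.44 ± 0.18, adjusted p = 0.248). In both genes control 2 was highest, control 3 next and control 1 the lowest control, which is the order of the enterocyte marker means given above. The controls of Asns and Slc1a1, which rose in the knockouts, stood in the same order. So did those of Slc3a2, Slc7a8, Slc7a7, Slc1a4, Slc38a9, Psat1 and Psph, so the order is not particular to the absorption complex. Its share over all genes was not counted. Slc6a19, the main neutral amino acid carrier of the enterocyte brush border and not among the 39, was at 4.63 in control 1, 5.23 and 5.24 in controls 2 and 3, and 4.31 to 4.59 in the knockouts (adjusted p = 0.154). In such bulk samples, fewer cells of a type and less RNA per cell cannot be told apart. Without control 1 the change of Slc7a9 was -1.19 (adjusted p = 0.0295), and against control 1 alone it was -0.11 (adjusted p = 0.921). The part of enterocyte RNA in these values was not tested.

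**Figure D2:**
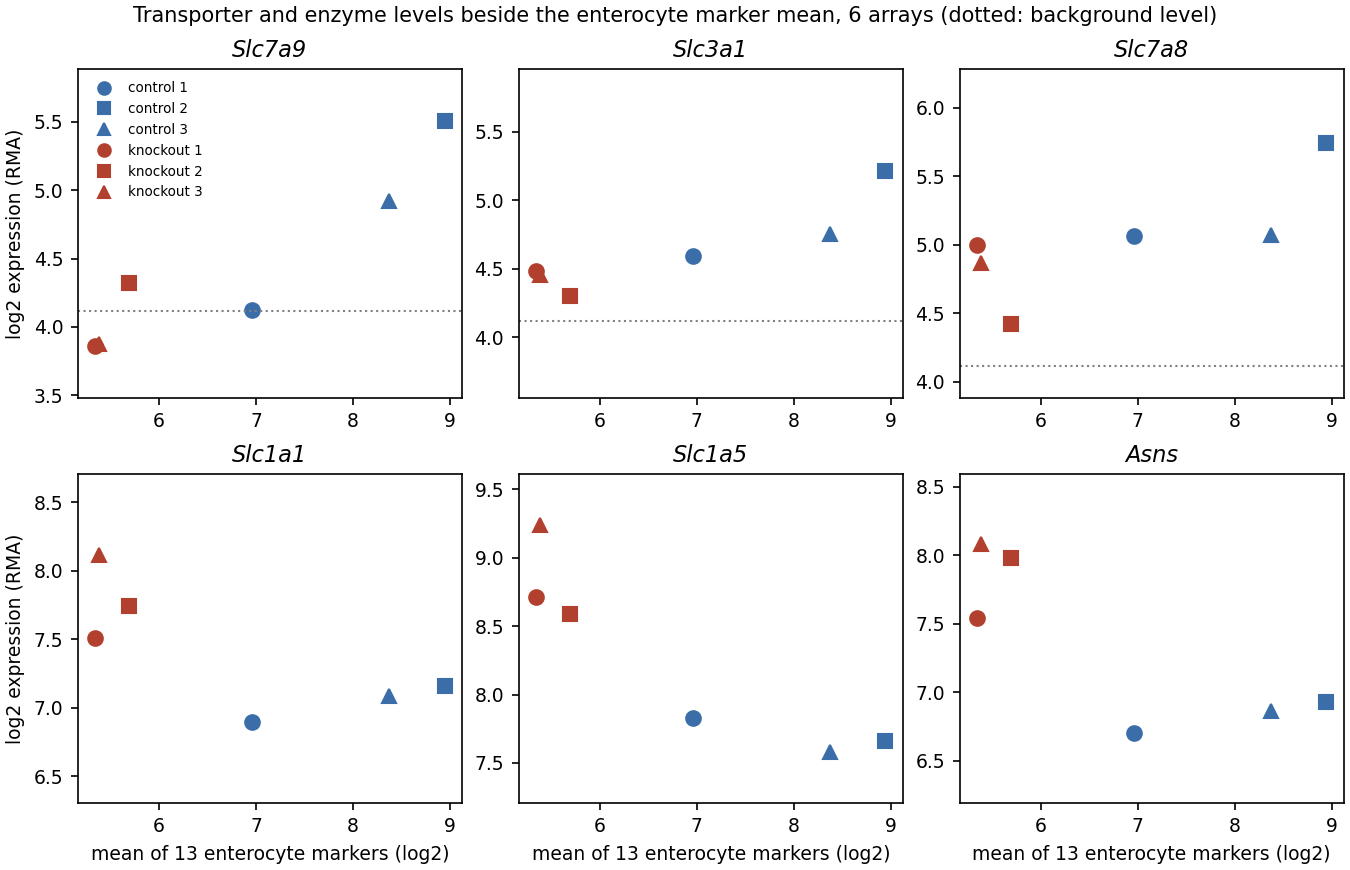
Log2 expression of 6 genes (vertical axis) against the mean of 13 enterocyte markers (horizontal axis, log2) on the 3 control (blue) and 3 knockout (red) arrays, with the background level dotted where it falls in a panel. Slc7a9 is highest in controls 2 and 3, which hold the most enterocyte RNA, and is lower in the knockouts. Slc1a1, Slc1a5 and Asns are higher in the 3 knockouts. The controls of Slc1a1 and Asns stand in the order of the enterocyte mean, as do those of Slc7a9, Slc3a1 and Slc7a8.

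Of the 4 SLC1 genes above background, 2 rose. Slc1a5 encodes ASCT2, the sodium-dependent exchanger that brings glutamine into proliferating cells. It was at 8.72, 8.58 and 9.24 in the knockouts and 7.83, 7.66 and 7.58 in the controls. The lowest knockout lay above the highest control by more than the spread among controls, and the change was 1.16 ± 0.16 (adjusted p = 0.0113). A second probe set of the gene gave 8.86, 8.60 and 9.43 against 7.52, 7.48 and 7.06, a difference of 1.61. The call held in 5 of the 6 fits that left out 1 array and was lost without control 3 (adjusted p = 0.0512). Against control 1 alone, the control with least enterocyte RNA, the change was 1.02 (adjusted p = 0.183).

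Slc1a1 encodes EAAC1, or EAAT3, which takes up glutamate, aspartate and cysteine. It was at 7.51, 7.74 and 8.12 in the knockouts and 6.89, 7.16 and 7.08 in the controls, without overlap. The change was 0.75 ± 0.16 (adjusted p = 0.0494), the nearest of the 5 rises to the threshold. Intestinal epithelium is also known to express Slc1a1, and the part of epithelial RNA in its levels was not tested. The call was kept in 1 of 6 fits with an array left out, that without knockout 1. In these fits the adjusted p ranged from 0.0460 to 0.131 and the change from 0.58 to 0.89. It was also lost without the low-value filter (adjusted p = 0.0658), under cyclic loess normalization (adjusted p = 0.0549) and without the variance trend (adjusted p = 0.0868).

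Slc1a4, which encodes ASCT1, the serine and alanine exchanger closest to ASCT2, had a change of -0.038 ± 0.18 (adjusted p = 0.947), with arrays from 4.88 to 5.41 in the knockouts and from 4.99 to 5.37 in the controls. The 95% confidence interval, -0.46 to 0.38, ends below that of Slc1a5, which starts at 0.78, though the difference between these genes was not tested. The glial glutamate carrier gene Slc1a2 was at background, averaging 4.17 and 4.09, and Slc1a3, the other glial carrier, was below it on every array.

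The carriers of small neutral amino acids, glycine and taurine showed no gene that passed. Slc6a6, the taurine carrier, was at 9.96, 10.21 and 10.02 in the knockouts and 10.64, 10.24 and 10.26 in the controls. All knockouts lay below all controls, narrowly so for knockout 2, and the change was -0.32 ± 0.12 (adjusted p = 0.215). The SLC36 carriers Slc36a1 (0.086 ± 0.19) and Slc36a4 (-0.23 ± 0.11) and the alanine and serine exchanger Slc7a10 (-0.16 ± 0.20) had adjusted p-values from 0.339 to 0.873. Slc36a4 did not overlap between groups, yet a second probe set of it differed by 0.47 in the opposite direction.

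Of the 9 SLC38 genes, 7 were above background and 1 rose. Slc38a2 encodes SNAT2, the system A carrier that concentrates alanine, serine and glutamine and is known to be induced by amino acid shortage and by hypertonic stress. It was at 10.37, 10.40 and 10.63 in the knockouts and 10.15, 9.92 and 9.96 in the controls, with no overlap. The change was small and tight, 0.45 ± 0.092 (adjusted p = 0.0401). The call was lost with the replicate number as a block (adjusted p = 0.0573) and in 5 of 6 fits with an array left out, being kept without control 1. In these fits the change lay between 0.37 and 0.53 and the adjusted p between 0.0244 and 0.133. The call was also lost without the low-value filter (adjusted p = 0.0510) and without the variance trend (adjusted p = 0.134). Against control 1 alone the change was 0.31. The neighbours of Slc38a2 on either side among the protein-coding genes of the RefSeq table are Slc38a1 and Slc38a4, which encode the other system A carriers. Slc38a1 changed by 0.038 ± 0.17 (adjusted p = 0.942), and Slc38a4 was below background on every array.

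Slc38a6 had separated groups at 6.22, 5.91 and 5.74 against 5.50, 5.53 and 5.57 (0.42 ± 0.16, adjusted p = 0.217), with knockout 1 the highest. The lysosomal carriers Slc38a7 (0.090 ± 0.15) and Slc38a9, an arginine sensor for mTORC1 (0.24 ± 0.21), and Slc38a10 (0.23 ± 0.14) overlapped between groups, with adjusted p-values from 0.467 to 0.817. The system N carrier gene Slc38a3 was near background (-0.086 ± 0.13, adjusted p = 0.807), and the mean of Slc38a5 lay below it, at 3.96.

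**Figure D3:**
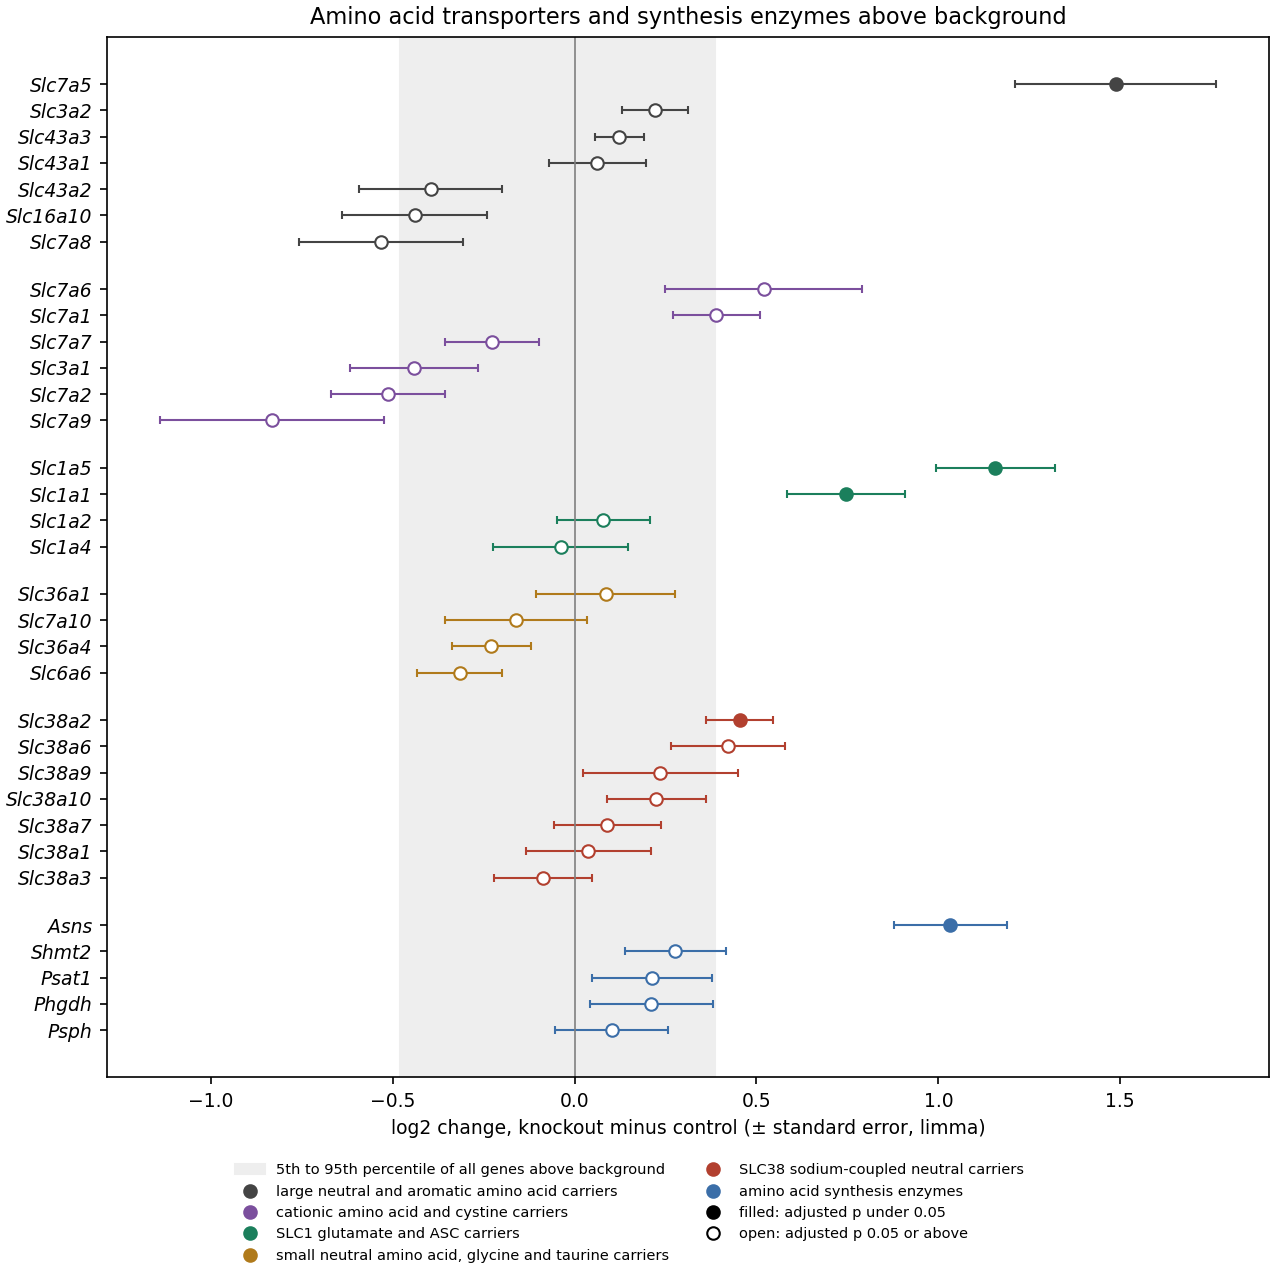
Log2 change, knockout minus control, with its standard error for the 33 genes above background, grouped by transport class or as enzymes, with filled points for an adjusted p under 0.05 and a grey band for the 5th to 95th percentile of all 15312 genes. The 5 filled points, Slc7a5 at 1.49, Slc1a5 at 1.16, Asns at 1.03, Slc1a1 at 0.75 and Slc38a2 at 0.45, lie to the right of the band, and Slc7a9 at -0.83 is the lowest open point.

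All 5 synthesis enzymes had a positive change, and 1 rose. Asns encodes asparagine synthetase, which makes asparagine from aspartate and glutamine. It was at 7.54, 7.98 and 8.08 in the knockouts and 6.70, 6.93 and 6.87 in the controls. The lowest knockout lay above the highest control by more than the range of the controls, and the change was 1.03 ± 0.15 (adjusted p = 0.0137). Leaving out knockout 2, knockout 3 or control 3 ended the call, at adjusted p-values of 0.0511, 0.0607 and 0.0521, while the change stayed between 0.93 and 1.19 in the 6 fits with an array left out. Against control 1 alone it was 1.16 (adjusted p = 0.125).

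None of the 4 genes of serine and glycine synthesis passed. Shmt2, the mitochondrial enzyme that turns serine into glycine and a one-carbon unit, was at 7.63, 7.64 and 8.06 against 7.49, 7.60 and 7.40. The groups did not overlap, with knockouts 1 and 2 close to control 2, and the change was 0.28 ± 0.14 (adjusted p = 0.369). The 3 enzymes that make serine from a glycolytic intermediate are Phgdh, the first step (0.21 ± 0.17), Psat1, the second (0.21 ± 0.16), and Psph, the last (0.10 ± 0.16). None of them passed (adjusted p from 0.582 to 0.802). Psat1 did not overlap between groups, its controls lying between 5.04 and 5.06 and its knockouts at 5.11, 5.09 and 5.58.

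Promoters were read from the RefSeq table of GRCm38.p6, which gives 250 bases before to 50 after a start site and held 31 of the 39 genes. Slc1a5, Slc38a1, Slc38a3, Slc43a3, Slc6a6, Slc7a2, Slc7a3 and Slc7a5 had no entry. Of the genes that rose, Asns, Slc1a1 and Slc38a2 had one, and the 250 bases before their start sites are shown to compare genes that rose together. Capitals mark TGATGNAA, where N is any base, the letters of the C/EBP-ATF response element bound by ATF4 with a C/EBP partner, searched on both strands.
Asns, chr6:7693210-7693459, minus strand: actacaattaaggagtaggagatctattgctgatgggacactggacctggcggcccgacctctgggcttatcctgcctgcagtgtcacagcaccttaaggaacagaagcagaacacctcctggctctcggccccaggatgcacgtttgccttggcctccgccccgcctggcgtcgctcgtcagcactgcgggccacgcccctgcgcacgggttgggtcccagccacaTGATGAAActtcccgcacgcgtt
Slc1a1, chr19:28834885-28835134, plus strand: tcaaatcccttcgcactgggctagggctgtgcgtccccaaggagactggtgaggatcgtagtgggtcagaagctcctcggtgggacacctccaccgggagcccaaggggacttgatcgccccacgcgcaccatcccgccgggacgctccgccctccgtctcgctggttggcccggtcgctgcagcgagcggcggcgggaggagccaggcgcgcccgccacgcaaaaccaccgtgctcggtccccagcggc
Slc38a2, chr15:96699729-96699978, minus strand: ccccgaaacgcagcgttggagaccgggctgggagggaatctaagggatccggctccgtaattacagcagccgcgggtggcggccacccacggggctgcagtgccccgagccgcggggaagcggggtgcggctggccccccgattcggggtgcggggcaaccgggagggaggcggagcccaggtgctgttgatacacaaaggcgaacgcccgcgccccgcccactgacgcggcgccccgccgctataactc

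Asns held 1 match, starting 23 bases before the start site, and these letters were not in the windows of Slc1a1 and Slc38a2. Introns and other sequence outside the windows were not searched, so a gene without a match may hold the element elsewhere. The G and C content was 61.6% for Asns, 70.4% for Slc1a1 and 72.0% for Slc38a2. Among the 30 measured genes with a window, 4 (13.3%) held a match, beside 4.51% of the 27025 genes with a window, whatever their level. The share was 2.94% of the 11918 such genes above background, and 3.97% when each of the 32851 windows was counted. The 30 include genes below background, so the share above background is of an unlike set. The other 3 with a match were Slc1a4, Slc7a11 and Slc7a7, and none of these rose, Slc7a11 being below background. They are shown in windows of 30 bases because they hold the same letters as Asns, in capitals, on either strand.
Slc1a4, chr11:20332699-20332728, minus strand: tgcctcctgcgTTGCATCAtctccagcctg
Slc7a11, chr3:50443661-50443690, minus strand: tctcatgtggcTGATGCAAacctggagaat
Slc7a11, chr3:50443642-50443671, minus strand: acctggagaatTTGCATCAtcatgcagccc
Slc7a7, chr14:54418067-54418096, minus strand: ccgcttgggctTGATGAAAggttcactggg
Slc7a7, chr14:54417927-54417956, minus strand: gacctagaagcTGATGCAAcagcttccccg

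The E-box CACGTG is a palindrome bound by MYC and related factors. It was in the windows of 4 of these 30 genes (13.3%), Slc36a1, Slc38a5, Slc38a7 and Slc43a1. The share was 8.09% of genes with a window and 10.8% of those above background, though the 30 were not filtered by level and Slc38a5 was below background. No gene of the 31 held both sets of letters. A match is a string of letters and not evidence of binding.

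Related genes were read in the same fit from 6 lists that do not overlap the 39. Together 125 of their 150 genes were above background, and 2 rose and 2 fell, a share of 3.20% beside 2.57% of all genes. An unadjusted p under 0.05 was found for 28 (22.4%), beside 16.4% of all genes. In the list of ATF4 and the integrated stress response, 1 of 24 rose and none fell, with a median change of 0.073, and 8 had an unadjusted p under 0.05, 5 higher and 3 lower. The rise was in Eif2ak4, which encodes GCN2, the kinase that senses uncharged tRNA. It was at 6.93, 6.97 and 7.57 in the knockouts and 6.37, 6.07 and 6.29 in the controls, without overlap (0.91 ± 0.19, adjusted p = 0.0406). The call was lost in each of the 6 fits with an array left out, where the change was 0.71 to 1.03 and the adjusted p 0.0572 to 0.120. Atf4 itself was at means of 10.5 and 10.6 (adjusted p = 0.679), although ATF4 is known to be controlled mainly at translation. Of its targets, Eif4ebp1 (0.45 ± 0.11, adjusted p = 0.0758), Chac1 (0.25 ± 0.19, adjusted p = 0.580), Sesn2 (0.12 ± 0.15, adjusted p = 0.758) and Trib3 (0.18 ± 0.22, adjusted p = 0.746) did not pass, and Ddit3, which encodes CHOP, was at -0.41 ± 0.14 (adjusted p = 0.180). Of the 24 genes, 6 were separated as higher and 2 as lower, beside 9.78% and 12.3% of all genes. The higher were Eif2ak4, Eif4ebp1, Eif2ak3 (0.54 ± 0.15, adjusted p = 0.107), Jdp2 (0.42 ± 0.14, adjusted p = 0.164), Atf5 (0.25 ± 0.15, adjusted p = 0.444) and Ppp1r15b (0.24 ± 0.11, adjusted p = 0.311). The lower were the stress genes Atf3 (-0.54 ± 0.19, adjusted p = 0.202) and Ppp1r15a (-0.39 ± 0.13, adjusted p = 0.173), which did not pass.

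Among 23 other amino acid enzymes, 1 rose and 2 fell, with a median of -0.026. Got1, the cytosolic aspartate aminotransferase, was at 7.57, 7.66 and 7.35 against 6.87, 6.80 and 6.45 and rose by 0.82 ± 0.15 (adjusted p = 0.0268). Glul, glutamine synthetase, fell from 11.76 to 11.41 (-0.35 ± 0.059, adjusted p = 0.0211), and Oat, ornithine aminotransferase, fell from 9.10 to 8.45 (-0.65 ± 0.11, adjusted p = 0.0227). None of the 3 genes overlapped between groups. With 1 array left out in turn, the calls of Got1 and Oat held in 1 of 6 fits, that without control 1, and the adjusted p ranged from 0.0264 to 0.0855 for Got1 and from 0.0083 to 0.0853 for Oat. The Glul call held without knockout 1 and without control 1 (adjusted p from 0.0245 to 0.0870). Oat had a change of -0.45 against control 1 alone (adjusted p = 0.281), and the enterocyte and mural markers moved the same way as Oat and Glul, a part that was not tested.

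In the list of one-carbon and glycine enzymes, none of 12 passed and 3 had an unadjusted p under 0.05. Mthfd1l, which releases formate in mitochondria, was at 6.23, 5.92 and 6.83 in the knockouts and 5.36, 5.13 and 5.63 in the controls (0.95 ± 0.24, adjusted p = 0.0748), and knockout 3 was again the highest. Mthfd2, the step before it and an ATF4 target, was at 0.62 ± 0.31 (adjusted p = 0.375). None of 32 genes of mTORC1 amino acid sensing passed by limma, and 6 had an unadjusted p under 0.05, 4 higher and 2 lower. The smallest p belonged to the GATOR2 subunit gene Seh1l (-0.37 ± 0.11, adjusted p = 0.121). Other genes of that complex, Mios (0.37 ± 0.12, adjusted p = 0.159) and Sec13 (0.32 ± 0.10, adjusted p = 0.164), were separated as higher. Its genes Wdr24 (-0.10 ± 0.15) and Wdr59 (-0.26 ± 0.13) overlapped between groups. Mtor was at 0.35 ± 0.10 (adjusted p = 0.125). None of 12 glutathione and NRF2 genes passed, with 3 at an unadjusted p under 0.05 and Ggt5, which cleaves glutathione outside the cell, at -0.43 ± 0.17 (adjusted p = 0.254). None of 22 other amino acid transporters passed, with 2 at an unadjusted p under 0.05, Slc6a19 and Slc38a11.

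**Figure D4:**
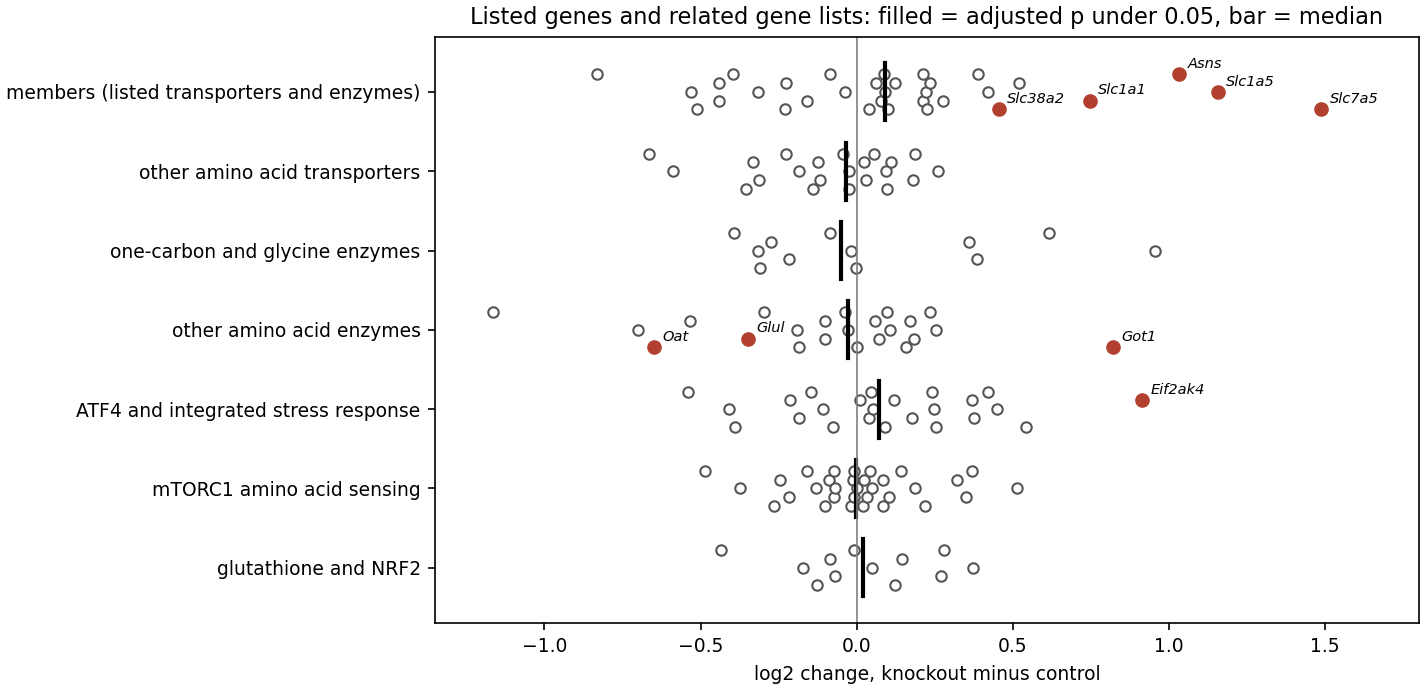
Log2 change, knockout minus control, of each gene above background in the 33 listed transporters and enzymes and in 6 related lists, with filled points for an adjusted p under 0.05 and a black bar at each median. The filled points are 5 higher in the first row, Got1, Glul and Oat among other amino acid enzymes and Eif2ak4 in the ATF4 list, and the medians lie between -0.051 and 0.090.

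The 5 rises differed in how far they held when the processing was changed. Over 16 alternatives each of the 5 kept its direction. Slc1a5 passed in 13 of them, Asns in 11, Slc7a5 in 10, and Slc38a2 and Slc1a1 in 6 each.

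**Figure D5:**
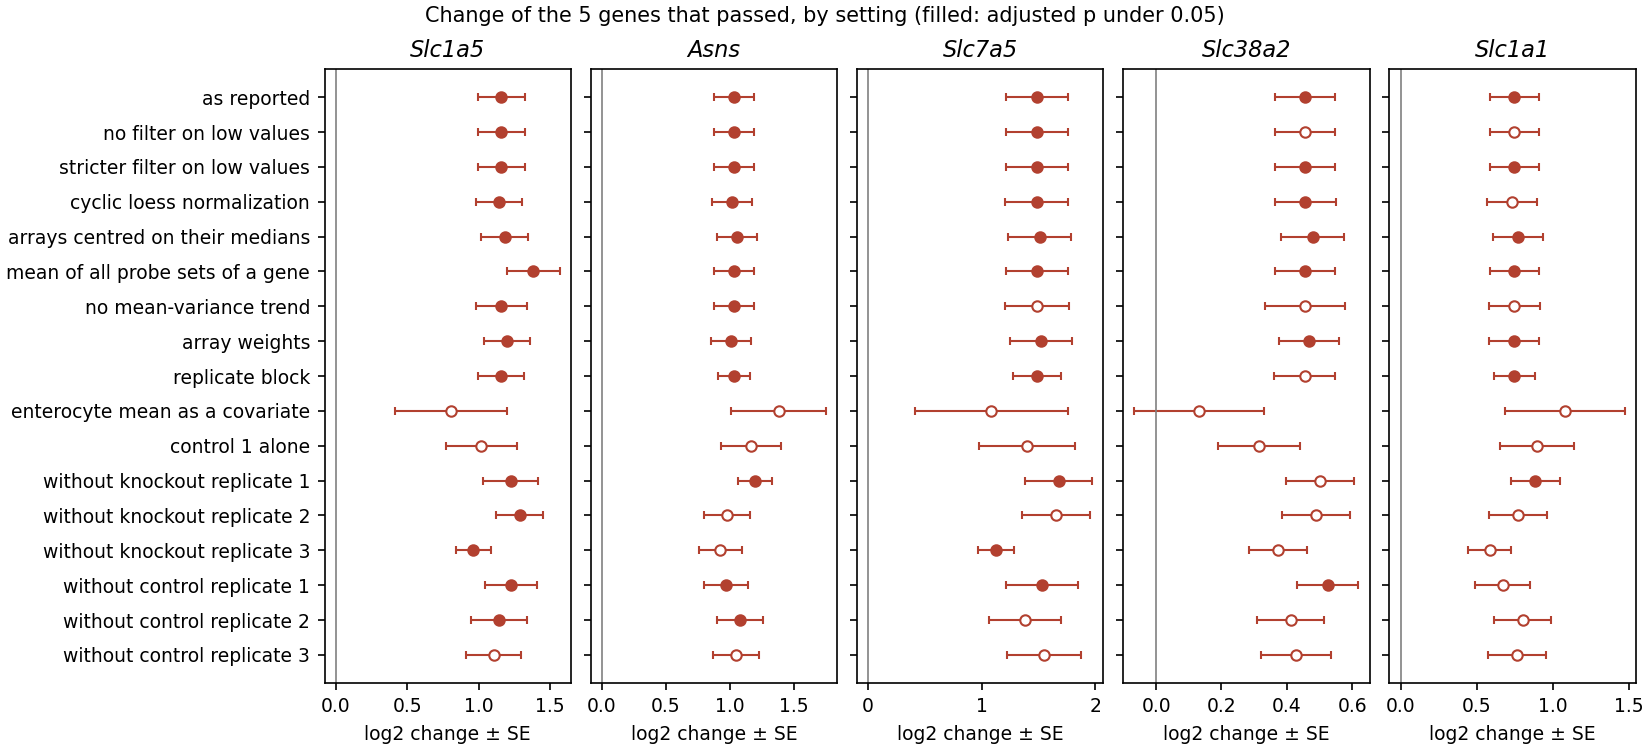
Log2 change with its standard error for the 5 genes that rose (panels), as reported and under 16 alternatives (rows), with filled points for an adjusted p under 0.05. All points lie above 0, and the lowest is Slc38a2 at 0.13 with the enterocyte mean as a covariate, where its standard error reaches below 0.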

How the data were processed

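The deposited values are log2 expression per probe set, made by the authors with RMA in the oligo package, per the submitters' processing notes; versions are not given in the sources used here. RMA subtracts background, makes array distributions equal by quantile normalization and summarises probes. Of 41345 probe sets, 23521 carried 1 gene symbol of the platform annotation; 1814 with several and 16010 with none were left out. Arrays have no read depth, and their number limits the precision.

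A linear model per gene was fitted to the 15312 genes with limma 3.58.1 (R 4.3.3), using eBayes moderation with its trend option. Its two-sided p-values were adjusted by the Benjamini-Hochberg method and called under 0.05. Changes are knockout minus control, and ± is the standard error. The script was tested on simulated data, and 16 alternatives were tried. In the simulations, 19.4% of log2 changes of 0.5 were recovered, 67.4% of those of 1 and 96% of those of 2. A gene that did not pass may therefore still have changed. The genes and lists were chosen with earlier results of these data known. Every listed gene is described, array by array where it passed; of each related list, those that passed are named, or else that with the smallest p, and others named there were chosen after their values were seen. Figures used matplotlib 3.10.9 in Python 3.11.15.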

Additional observations from a re-analysis of the deposited data

How the results depend on the processing

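The number of genes called over the whole array, 393, was 139 without the variance trend, 52 against control 1 alone and 3 with the enterocyte mean as a covariate, a fit in which the standard errors of the 5 genes that rose grew, to 0.67 for Slc7a5. It was 91 to 379 with 1 array left out. The 5 listed genes called higher became 3 without the low-value filter (Asns, Slc1a5 and Slc7a5), 2 without the variance trend (Asns and Slc1a5), 0 with the enterocyte covariate and 0 against control 1 alone, and 0 to 4 with 1 array left out (0 without control 3, 1 without knockout 2, 2 without knockout 3 or control 2). No listed gene was called lower except 1, Slc7a9, without control 1, so that range was 0 to 1. The 4 calls in the related lists became 0 without the variance trend, 0 with the enterocyte covariate, 2 against control 1 alone and 0 to 5 with 1 array left out. The median change of 0.090 was 0.24 with the stricter filter, which left 19 of the 33 genes, 0.16 with the covariate and 0.060 to 0.16 with 1 array left out. In the fit against control 1 alone, that array is assumed to vary like the knockouts.

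Direction turned for genes that did not pass. With the enterocyte covariate the changes were 0.031 for Slc7a8, -0.13 for Slc43a1, -0.80 for Slc7a6, 0.076 for Slc7a7, 0.98 for Slc7a9, 0.21 for Slc3a1, -0.11 for Slc1a2, 0.57 for Slc1a4, -0.25 for Slc38a1 and 0.066 for Slc38a3. Standard errors of these changes ran from 0.31 for Slc7a7 to 0.53 for Slc7a8. The enterocyte mean did not overlap between groups (5.34 to 5.69 in knockouts, 6.96 to 8.94 in controls). That fit can therefore hardly tell its effect from that of the knockout. Against control 1 alone the changes were -0.010 for Slc43a1, -0.028 for Slc7a6, -0.0094 for Slc1a2, 0.21 for Slc1a4 and -0.094 for Slc38a1. Averaging probe sets gave 0.12 for Slc36a4. With 1 array left out, Slc1a4 ranged from -0.16 to 0.12, Slc7a10 from -0.32 to 0.024, Slc36a1 from -0.068 to 0.27, Slc38a1 from -0.13 to 0.18 and Psph from -0.044 to 0.18. The cause was not tested. The labels do not say whether the replicate numbers pair the samples. Same-numbered arrays had deviations correlated at -0.021, -0.0074 and 0.039, and arrays of different number at -0.032 to 0.034. With 3 arrays in each group these values cannot settle whether samples were paired. The fit with the replicate block called 394 genes and 4 of the 5. No setting moved the median change of all genes by over 0.1. Centring arrays on their medians changed the share of higher calls from 42.7% to 49.3%, with the same 5 genes called.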

Other observations

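The only probe set of Slc6a9, a glycine carrier, is also assigned to Ccdc24 and was left out of the comparison. It was at 6.43, 5.99 and 6.03 on the knockout arrays and 6.43, 6.51 and 6.31 on the control arrays. Slc38a10 had a pair of probe sets that differed between groups by 0.23 and 0.23, and the pair of Slc7a11 lay below background at means of 3.19 and 2.85.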
